A study of Mus musculus with 6 samples.

Results

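The genes of splicing factors and core spliceosome proteins were compared between splenic follicular (Fo) B cells of control and G9gl mice. The set was taken by symbol: every gene named as a serine/arginine-rich splicing factor (Srsf with a number), a heterogeneous nuclear ribonucleoprotein (Hnrnp), a small nuclear ribonucleoprotein polypeptide (Snrp with a letter from a to g), a numbered U-snRNP protein (Snrnp with a number) or a subunit of splicing factors SF3A and SF3B (Sf3a and Sf3b). It held 58 of the 24346 gene symbols in the tables: 11 Srsf, 20 Hnrnp, 11 Snrp, 7 Snrnp and 9 Sf3 genes. RNA was sequenced from Fo B cells of mice aged 8 weeks, sorted as B220+ CD93- cells with low CD21 and high CD23. The control group, called WT, came from C57BL/6 (B6) mice, and the G9gl group from mice homozygous for a knocked-in heavy and light chain pair, the germline form of an anti-DNA antibody of a lupus patient, carried to study B cell anergy. Each group had 3 libraries, and as the labels do not state that these came from separate animals, the p-values here rest on the spread between these samples alone, part of which may be technical.

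Introns are removed from pre-mRNA by the spliceosome, which is built from small nuclear RNAs and their proteins. In most snRNPs a ring of Sm proteins (from Snrpb, Snrpd1, Snrpd2, Snrpd3, Snrpe, Snrpf and Snrpg) sits on the RNA, other proteins belong to 1 particle only, the SF3A and SF3B complexes hold the branch site, and SR and hnRNP proteins bind the transcript and promote or repress the use of splice sites. A separate minor spliceosome, with U11 and U12 RNAs, removes a small class of introns, and Snrnp25 encodes a protein of its U11/U12 particle. In lymphocytes such proteins are known for the choice of alternative exons, as with Hnrnpll, whose product drives the skipping of CD45 exons in activated T cells and plasma cells.

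The libraries were estimated to hold 10660000 to 12480000 fragments, so that 1 FPKM (fragment numbers divided by transcript length and by depth) in a transcript of 2 kb rests on at least 21.3 fragments. FPKM values summed to 603054 to 611557 in WT and to 657759 to 671533 in G9gl, and rescaling to TPM, which gives each library the same total over the genes in the tables, lowered the median log2 fold change of all genes by 0.12, from -0.0022 to -0.13. Markers of other cells moved with genotype. The summed level of all 15 listed macrophage markers was 19.9 to 25.4 FPKM in WT and 48.6 to 55.6 in G9gl (9 tested, 7 called higher, with Vsig4 at 0 in every WT library), that of 10 genes of dividing cells 18.1 to 22.9 against 29.7 to 39.6 (8 tested, 6 higher), and that of 14 stress genes 2373 to 2610 against 3121 to 3764 (11 tested, 5 higher). Most markers of the rarer cells were too low to be tested: 2 of 6 NK cell genes were tested and both were higher (summed level of all 6, 3.16 to 5.35 against 8.00 to 11.8 FPKM), 3 of 7 dendritic cell genes were tested and 2 were higher (2.26 to 4.08 against 7.12 to 7.93, with Clec9a at 0 in every WT library), and 2 of 8 neutrophil genes were tested and 1 was higher (2.11 to 7.88 against 15.2 to 35.5, with Camp, Elane and Mpo at 0 in every WT library). Of 7 erythroid genes 2 were tested and 1 was higher (55.03 to 64.4 against 91.4 to 292), and of 5 plasma cell genes 3 were tested and 1 was higher. Axl of the macrophage list, Zbtb46 of the dendritic cell list and Ube2c and Tpx2 of the dividing cell list reached the level needed for testing in G9gl libraries only, so these counts are descriptions and the summed levels cover every listed marker. B cell markers were abundant in every library, and of 9 listed, Cr2 and Fcer2a of the sort gate among them, 1 was called higher and 5 lower, with summed levels of 8380 to 8684 and 7618 to 8021 FPKM, and none of 3 tested T cell markers was called (limma, none at an unadjusted p under 0.05). The part of these cells in the differences below was not tested, and in bulk RNA fewer cells of a type cannot be told apart from less RNA per cell.

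The splicing genes were well expressed and, apart from Snrnp25, differed little between the genotypes. Of the 58 genes 56 reached 1 FPKM in at least 3 of the 6 libraries and were tested, while Hnrnpll and Srsf12 stayed at or below 0.164 FPKM in every library. The median of the tested genes' WT means was 68.3 FPKM against 16.1 over all 10122 tested genes, and 50 of the 56 lay above the latter. Calls were made at an adjusted p under 0.05 (limma on log2(FPKM + 1), Benjamini-Hochberg over all tested genes). By this rule 7 splicing genes (12.5%) were higher, against 11.8% of all tested genes, and 3 (5.36%) were lower, against 11.6%. On the deposited scale the share called higher was thus near that of all genes and the share called lower below it, which did not hold with TPM.

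Their median log2 fold change was -0.001, close to the -0.0022 of all genes. In 49 of 56 (87.5%) the fold change was within 1.2-fold either way, against 71.1% of all tested genes, and in 38 its 95% interval lay within 1.3-fold. The splicing genes were the more abundant (median WT mean 68.3 against 16.1 FPKM), and this comparison was not matched for level. The libraries did not overlap between groups in 23 genes, with G9gl above WT in 11 and below it in 12, where 20.3% and 20.5% of all tested genes did so. At an unadjusted limma p under 0.05, 9 were higher and 10 lower, beside 1869 and 1820 of all 10122 tested genes. Counts at this threshold in the lists below are to be read beside those. Rescaling to TPM changed the split to 2 higher and 16 lower of 56, beside 730 (7.21%) and 2493 (24.6%) over all genes instead of 1191 and 1174. With TPM the share called higher was thus below that of all genes and the share called lower above it. Directions below are therefore read against the median of all genes. The count of genes called lower was 0 without G9gl library 2, 1 without WT library 1 and 7 without G9gl library 1, and that of genes called higher was 4 without WT library 2 or G9gl library 2. No share of all genes was taken for these omissions, so the counts are descriptions only.

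**Figure D1:**
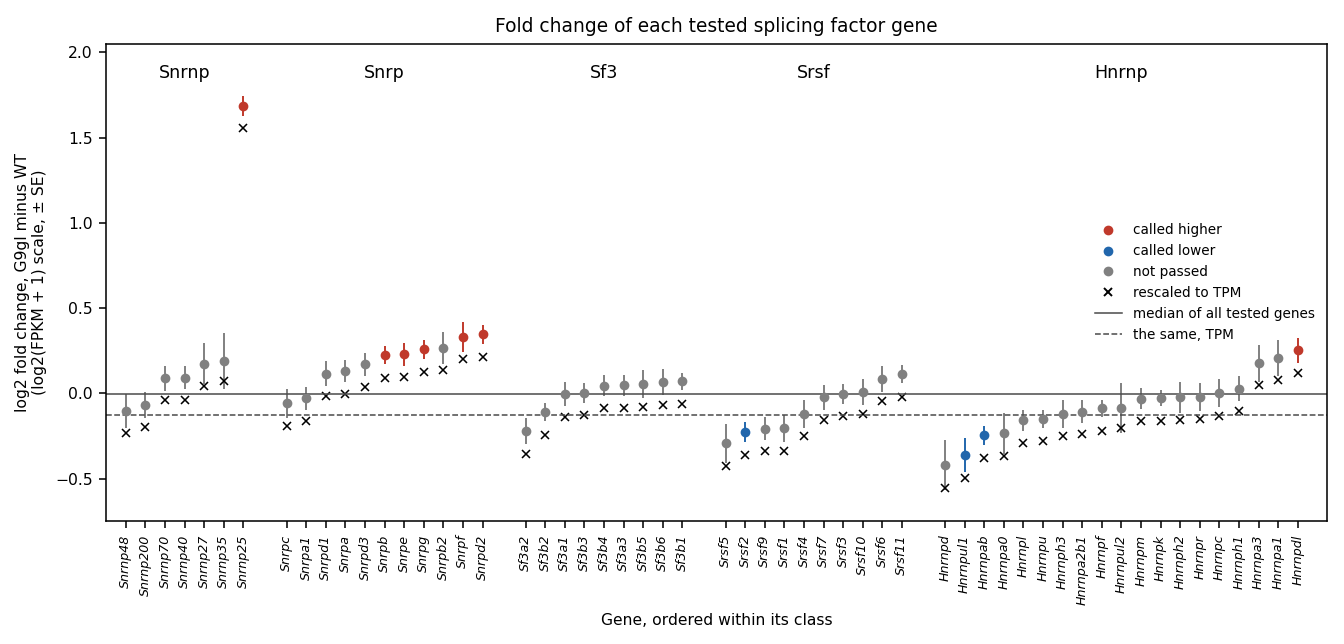
Log2 fold change (G9gl minus WT, on the log2(FPKM + 1) scale, bars ± SE from the limma fit) of the 56 tested splicing genes, by class and ordered within it. Circles are the deposited FPKM, coloured by call, crosses the same genes rescaled to TPM, and the lines the medians of all tested genes on each scale. Among the circles Snrnp25 stands at 1.68, and every other gene lies within 0.42 of 0. The crosses reach lower, to -0.56 for Hnrnpd.

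Snrnp25 rose 3.21-fold in G9gl. This gene (ENSMUSG00000040767.10, chr11:32205415-32208984, plus strand, mm10) encodes a protein of the U11/U12 particle, which recognises the splice sites of minor introns. It stood at 82.6, 83.0 and 75.03 FPKM in the WT libraries and at 267, 259.6 and 253 in the G9gl libraries. The lowest G9gl library was far above the highest WT library, and the spread within each group was small (80.2 ± 4.48 and 259.8 ± 6.80 FPKM, SD, n = 3 each). The log2 fold change was 1.68 ± 0.06 (SE), with a limma adjusted p of 2.5e-07. Among all tested genes 46 (0.454%) were called higher by at least 3-fold, and Snrnp25 was 40th by log2 fold change. Among the tested splicing genes its level ranked 23rd in WT and 7th in G9gl.

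The start regions of these genes hold short motifs in shares that vary by class. RefSeq promoters (GRCm38.p6) were matched by symbol for 51 of the 58 genes, 9 of the 10 called among them, and the 250 bases before the start were searched on both strands for 7 motifs: the CCAAT box (its own letters), the core bound by ETS factors (CGGAAG), the NRF1 core (GCGCANGC), the E-box (CACGTG), the YY1 core (AAGATGG), the TATA box (TATAAA) and the cyclic AMP response element (TGACGTCA). At least 3 CCAAT matches were found in 9 of 51 (17.6%), against 2.98% of all 27025 promoters and 5.27% of those of tested genes. Of these 9, 7 were among the 18 Hnrnp promoters. CGGAAG was found in 27 of 51 (52.9%, against 13.8% of all promoters and 28.9% of those of tested genes), in 7 of 7 Sf3 and 7 of 9 Snrp promoters but in 5 of 18 Hnrnp promoters. At least 1 CCAAT was in 21 of the 51 promoters (41.2%, against 34.5% of all and 37.6% of those of tested genes), the NRF1 core in 15 (29.4%, against 8.42% and 18.6%), the E-box in 3 (5.88%, against 6.05% and 9.08%), the YY1 core in 1 (1.96%, against 4.53% and 4.74%), the TATA box in 6 (11.8%, against 13% and 5.84%) and the cyclic AMP element in 2 (3.92%, against 1.62% and 3%). Each motif was searched on its own, so matches of different motifs may overlap. Matches are letters only, and no binding was measured.

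Shown here are start regions of genes with 3 CCAAT matches that moved in opposite directions, Snrnp25 (higher) and Hnrnpul1 and Hnrnpab (lower), and that of Srsf2 (lower), each written 5′ to 3′ in the gene's direction and ending at the base before its start, with all motif matches in capitals. They are chr11:32205165-32205414 on the plus strand for Snrnp25, chr7:25754760-25755009 on the minus strand for Hnrnpul1, chr11:51606882-51607131 on the minus strand for Hnrnpab and chr11:116853095-116853294 on the minus strand for Srsf2, where the farthest 50 bases overlap an exon and are not shown.
Snrnp25: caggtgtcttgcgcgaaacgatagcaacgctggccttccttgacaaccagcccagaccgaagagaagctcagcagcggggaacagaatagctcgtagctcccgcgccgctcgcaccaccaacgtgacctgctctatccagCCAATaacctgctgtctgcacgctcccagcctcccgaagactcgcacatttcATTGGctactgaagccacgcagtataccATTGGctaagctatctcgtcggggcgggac
Hnrnpul1: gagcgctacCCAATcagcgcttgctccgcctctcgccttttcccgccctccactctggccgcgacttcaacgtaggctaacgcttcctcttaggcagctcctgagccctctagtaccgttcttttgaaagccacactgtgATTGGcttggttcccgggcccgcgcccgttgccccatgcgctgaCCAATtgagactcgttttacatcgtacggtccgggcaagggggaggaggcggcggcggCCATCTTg
Hnrnpab: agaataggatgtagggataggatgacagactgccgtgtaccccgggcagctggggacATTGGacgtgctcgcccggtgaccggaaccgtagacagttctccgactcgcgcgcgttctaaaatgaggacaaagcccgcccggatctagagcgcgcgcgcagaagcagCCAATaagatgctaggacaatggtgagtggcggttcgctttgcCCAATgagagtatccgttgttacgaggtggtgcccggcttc
Srsf2: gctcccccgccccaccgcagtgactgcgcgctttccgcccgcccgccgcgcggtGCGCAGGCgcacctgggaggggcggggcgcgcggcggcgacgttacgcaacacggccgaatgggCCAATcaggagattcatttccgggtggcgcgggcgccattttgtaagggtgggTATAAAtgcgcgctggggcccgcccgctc
In Snrnp25 the CCAAT matches begin 110, 58 and 30 bases before the start, the latter pair on the opposite strand, where they read ATTGG. Hnrnpul1 has them at 241, 110 and 66 bases and Hnrnpab at 193, 84 and 41 bases. Hnrnpul1 also holds a YY1 core next to its start, and Srsf2 holds 1 CCAAT, 1 NRF1 core and 1 TATAAA 29 bases before its start. Snrpf, which was higher, also has 3 CCAAT matches, at 173, 80 and 54 bases, so that triple CCAAT was present in genes called in either direction, and 5 of the 41 genes that did not pass had it too.

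None of 6 other genes of proteins that belong to the U11/U12 particle only was called. The Sm ring genes, whose proteins most snRNPs share, are given below. Snrnp35 stood at 6.26, 6.85 and 6.61 FPKM in WT and at 7.65, 10.1 and 5.70 in G9gl, and Snrnp48, with the lowest fold change of the Snrnp class, averaged 13.4 ± 1.64 and 12.4 ± 0.743 (SD, n = 3 each). In both genes the groups overlapped, and neither passed the test (limma adjusted p 0.44 and 0.49). Rnpc3, whose product bridges the U11 and U12 sides of the particle, had means of 15.3 and 14.3 FPKM, Zcrb1 39.7 and 44.1, Zmat5 55.2 and 49.97 and Pdcd7 19.6 and 15.2, with limma adjusted p from 0.088 for Pdcd7 to 0.51 for Rnpc3. Pdcd7 passed the threshold without G9gl library 1 (log2 fold change -0.49, adjusted p 0.020) and with TPM (-0.50, 0.024), whereas without G9gl library 2 its log2 fold change was -0.195 (0.23). Of these 6 genes Pdcd7 alone was under an unadjusted limma p of 0.05 in the fit of all 6 libraries on the deposited scale.

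Of the 9 minor spliceosome genes listed outside the symbol rule, 2 were called higher (22.2%, against 11.8% of all tested genes) and none lower, with a median log2 fold change of 0.01. Zrsr1 (chr11:22972005-22976496, plus strand), an imprinted retrocopy of the acceptor site factor gene Zrsr2, stood at 2.01, 2.55 and 1.23 FPKM in WT and at 13.2, 12.6 and 14.0 in G9gl. The groups were wide apart (log2 fold change 2.31 ± 0.16 SE, limma adjusted p 1.8e-05). Zrsr1 lies within the span of Commd1 on the other strand, and these libraries keep no strand. Commd1 had nearly equal means, 99.8 ± 3.03 FPKM in WT and 99.1 ± 3.38 in G9gl (SD, n = 3 each). The other tested neighbour, the chaperonin subunit gene Cct4, with its start 18514 bases from that of Zrsr1, was called higher, from 117 ± 3.75 to 144.5 ± 1.10 FPKM (SD, n = 3 each, log2 fold change 0.30, limma adjusted p 0.0026). Zrsr2 itself averaged 6.88 and 7.92 FPKM and did not pass (adjusted p 0.23). The other gene called was Scnm1, which encodes a minor spliceosome protein, with 41.1, 42.3 and 42.3 FPKM in WT and 51.1, 51.0 and 53.6 in G9gl (log2 fold change 0.30 ± 0.06, limma adjusted p 0.0050, 0.057 with TPM).

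Snrnp25 sits among genes that were higher as well. Nearest by start site is Il9r, the interleukin-9 receptor gene, on the minus strand with its start at -5136 bases from that of Snrnp25, while by gene span Rhbdf1, just downstream, is the closer. Il9r stood at 7.75, 7.58 and 5.96 FPKM in WT and at 91.9, 109 and 108 in G9gl, a log2 fold change of 3.69 ± 0.11 (SE). Rhbdf1, which encodes an inactive rhomboid protease, stood at 3.77, 4.88 and 4.48 FPKM in WT and at 32.4, 50.7 and 52.5 in G9gl (log2 fold change 3.08 ± 0.17). Next come Mpg, a DNA glycosylase gene, with means of 8.70 and 18.1 FPKM (log2 fold change 0.99), and Nprl3, a regulator of mTORC1, with 15.2 and 27.6 FPKM (0.82). Mpg lies within the span of Nprl3 on the other strand, and these libraries keep no strand. Overlap of their exons was not examined, so the calls of Mpg and Nprl3 may not be independent. All 4 were called, with limma adjusted p from 1.0e-07 for Il9r to 6.9e-04 for Mpg.

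The alpha-globin gene Hba-a1, 78096 bases downstream by its start, varied from 25.8 to 42.7 FPKM in WT and was 204.8, 67.5 and 29.7 in G9gl, and did not pass (limma adjusted p 0.20). Hba-a2, another alpha-globin gene, was not tested, with 0.05, 15.47 and 0.06 FPKM in WT and 0.06, 0.06 and 28.35 in G9gl. It was highest in WT library 2 and G9gl library 3, where Hba-a1 was lowest of its group. A split of fragments between these genes was not tested, so the values of Hba-a1 alone are uncertain. The flanking tested genes Cpeb4 and Ubtd2 did not pass. Of the 9733 tested genes with a position, 394 were called higher by at least 1.5-fold, and Il9r, Snrnp25, Rhbdf1, Nprl3 and Mpg formed a run of 5 such genes with no other tested gene between them. No longer run was found, the next holding 4 genes (Ccl5, Ccl3, Ccl4 and Wfdc17), and 11 runs had at least 3. Around the other splicing genes, 205 tested genes lay within 100 kb, of which 23 (11.2%) were higher and 22 (10.7%) lower, shares near the 11.8% and 11.6% of all genes. The neighbours of Snrnp25 were chosen for description after their values were seen.

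**Figure D2:**
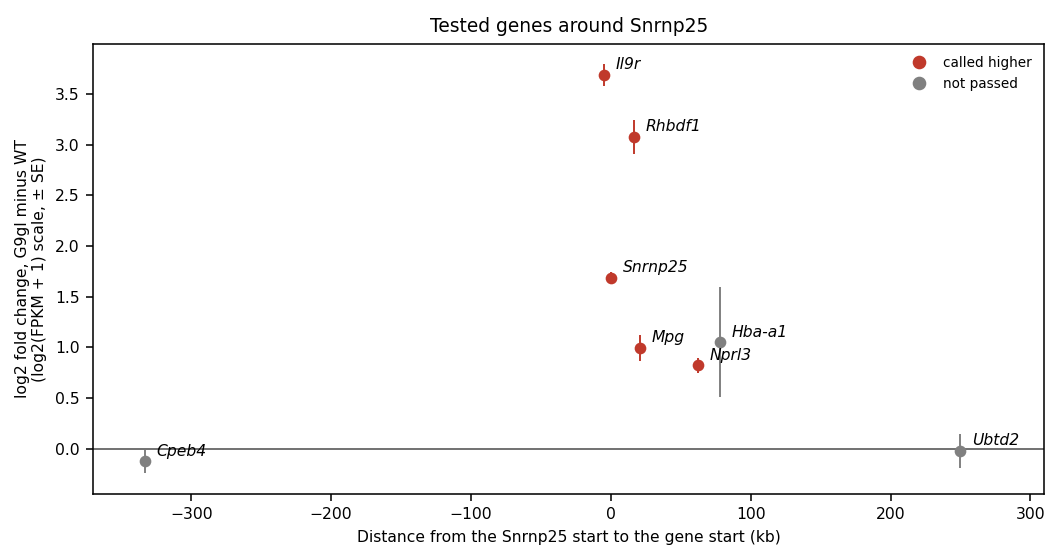
Log2 fold change (± SE) of the tested genes around Snrnp25 against the distance in kb of their start from its start, with positive distances downstream. Red points were called higher and grey points did not pass. Il9r at 3.69 and Rhbdf1 at 3.08 exceed Snrnp25 at 1.68, while Cpeb4 and Ubtd2 at the edges lie near 0.

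The Sm ring genes were modestly higher in G9gl. All 7 had positive log2 fold changes on the deposited scale, from 0.11 to 0.35, with a median of 0.23, and 5 of 7 were called higher (71.4%, against 11.8% of all tested genes). With TPM the median was 0.10 and 1 of 7 was called, with Snrpd1 and the median of all genes below 0. Sums over the whole Snrp class were 1997 to 2235 FPKM in WT and 2452 to 2518 in G9gl, without overlap. The other 4 Snrp genes, which encode U1 and U2 proteins, had no call and a median of 0.05 (limma, 1 higher and none lower at an unadjusted p under 0.05).

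Snrpd2 (chr7:19149722-19153542) encodes an Sm protein that pairs with that of Snrpd1. It stood at 172.9, 160.6 and 176 FPKM in WT and at 211, 227 and 210.3 in G9gl, so that each G9gl library was above each WT library. Its log2 fold change was 0.35 ± 0.06 (SE), a 1.27-fold rise, with a limma adjusted p of 0.0024, and it was called under all 14 alternatives (0.21 with TPM, adjusted p 0.016). Snrpf (chr10:93583029-93589706), which encodes the Sm F protein, stood at 53.9, 52.2 and 51.4 FPKM in WT and at 73.1, 69.0 and 57.7 in G9gl. G9gl library 3 was the lowest of its group yet above WT, and the log2 fold change was 0.33 ± 0.09 with a limma adjusted p of 0.022. The Snrpf call was lost without WT library 2 (adjusted p 0.069), WT library 3 (0.066) or G9gl library 2 (0.072), and with TPM (0.087), with no filter on low values (0.066) and with the trend in GC content and length removed (log2 fold change 0.22, adjusted p 0.16).

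Snrpg (chr6:86371304-86379328), the most abundant splicing gene in these cells, encodes the Sm G protein. Its values were 746, 694 and 779 FPKM in WT and 901, 897 and 853 in G9gl, which did not overlap (log2 fold change 0.26 ± 0.06, limma adjusted p 0.0090). The Snrpg call held without any single library but was lost with TPM (adjusted p 0.089), with quantile normalization (0.80) and with the trend in GC content and length removed (0.053). Snrpb and Snrpe were the other 2 genes called, named here to complete the count. Snrpb, which encodes the Sm B proteins, stood at 249.6, 259 and 273 FPKM in WT and at 299.8, 304 and 309.6 in G9gl (log2 fold change 0.22, limma adjusted p 0.012, and 0.21 with TPM). Snrpe averaged 444 ± 42.6 and 519 ± 11.4 FPKM (SD, n = 3 each), with a limma adjusted p of 0.042. The Snrpe call was lost without WT library 1 (0.054), WT library 2 (0.10) or G9gl library 1 (0.055), 2 (0.087) or 3 (0.12), and with no filter (0.12). On other scales the log2 fold change of 0.23 of Snrpe shrank to 0.10 with TPM (adjusted p 0.31), 0.07 with quantile normalization (0.49) and 0.08 with the GC and length trend removed (0.39), none of which passed.

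Snrpd1 averaged 61.6 and 66.8 FPKM and Snrpd3 199 and 224, and their libraries overlapped between the groups. The ring holds its 7 proteins in equal number, whereas their transcripts spanned a 14.1-fold range of mean FPKM in WT and a 13.3-fold range in G9gl, from Snrpf to Snrpg. Snrpd2, Snrpe, Snrpf and Snrpg each have 1 near-identical pseudogene copy elsewhere in the genome (at least 98% identity over at least 100 bases), so fragments could be split between copies and these 4 values are uncertain to that extent. Snrpf and Snrpg also overlap a gene on the other strand.

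**Figure D3:**
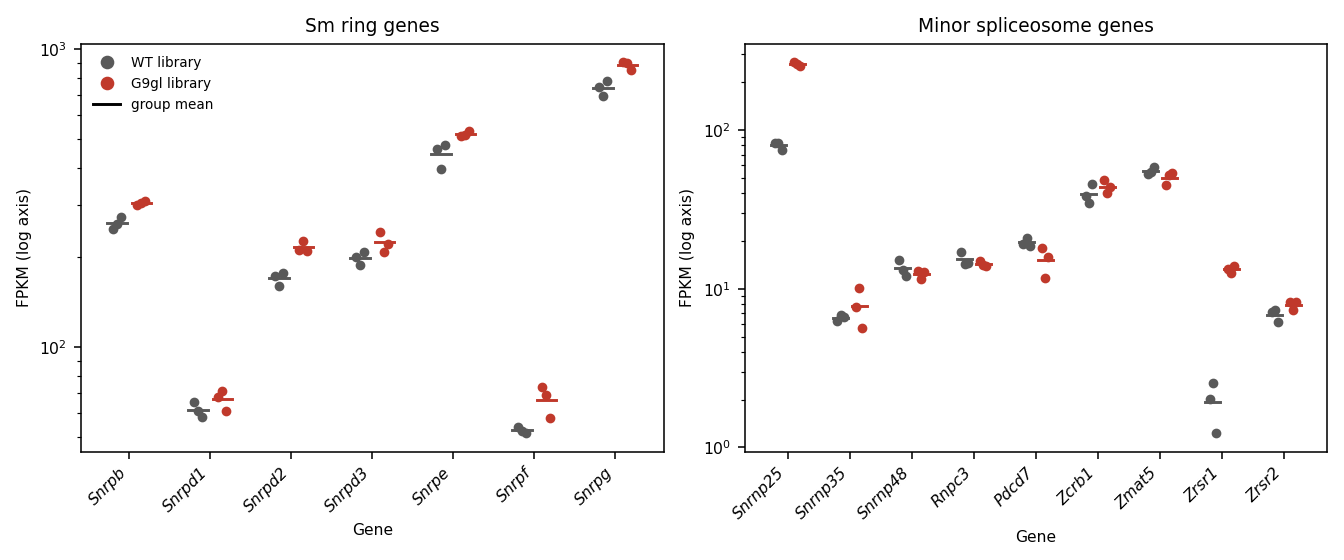
FPKM on a log axis of the 7 Sm ring genes (left) and of the U11/U12 protein genes with Zrsr1 and Zrsr2 (right) in each WT library (grey) and G9gl library (red), with group means as bars. In the Sm ring the groups are shifted by at most 0.35 on the log2 scale, whereas Snrnp25 and Zrsr1 are separated by several-fold.

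Among the proteins that belong to a single snRNP, none of the other genes of the Snrp and Snrnp classes was called, and Snrpb2 alone was under an unadjusted limma p of 0.05. For the U1 particle, which pairs with the donor splice site, the means were 37.5 and 39.9 FPKM for Snrnp70, 68.1 and 74.5 for Snrpa and 52.5 and 50.1 for Snrpc. Snrpc had the lowest fold change of the Snrp class, with 52.0, 46.3 and 59.0 FPKM in WT and 50.3, 49.3 and 50.7 in G9gl (log2 fold change -0.06, limma adjusted p 0.65), and its sign turned without WT library 3 (0.03). Of the U2 particle, Snrpa1 had means of 49.5 and 48.4 FPKM. The U2 gene Snrpb2 stood at 30.8, 23.9 and 30.0 FPKM in WT and 33.0, 33.5 and 35.3 in G9gl, without overlap but with an adjusted p of 0.078. The U5 genes Snrnp200, a helicase, and Snrnp40 had log2 fold changes of -0.07 and 0.09, and the tri-snRNP gene Snrnp27 one of 0.17, with overlapping libraries in all 3.

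The genes of SF3A and SF3B, which anchor U2 at the branch site, had the narrowest range of fold changes of the 5 classes. None of the 9 was called (limma, 1 lower and none higher at an unadjusted p under 0.05), their log2 fold changes ran from -0.22 to 0.07 with a median of 0.04, and the class summed to 785 to 824 FPKM in WT and 794 to 822 in G9gl. Sf3b1, the largest SF3B subunit and a frequent target of mutation in leukaemia, had the highest fold change, with 135.5, 136 and 134.9 FPKM in WT and 139, 139.9 and 149 in G9gl. These values barely separated (log2 fold change 0.07 ± 0.05, limma adjusted p 0.36, and -0.06 with TPM), though Sf3b1 was called higher once the trend in GC content and length was removed (0.17, adjusted p 0.029). Sf3a2, with the lowest fold change, stood at 21.1, 18.8 and 20.2 FPKM in WT and at 17.3, 17.4 and 16.3 in G9gl, below WT in every library, with an adjusted p of 0.063. Sf3b2, as abundant as Sf3b1, stood at 137.9, 147 and 148 FPKM in WT and at 137, 131 and 132.7 in G9gl (adjusted p 0.17). Sf3a2 passed with TPM (adjusted p 0.0074) and after the trend in GC content and length was removed (0.025).

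Most genes of SR proteins, which mostly promote exon inclusion, did not pass. Of 10 tested Srsf genes 1 was called lower (10%, near the 11.6% of all tested genes) and none higher (11 in the tables, 4 lower and none higher at an unadjusted limma p under 0.05), 7 had negative log2 fold changes, and the median was -0.07. The class summed to 1118 to 1232 FPKM in WT and to 1030 to 1114 in G9gl. These sums barely separated, at 1117.6 in the lowest WT library and 1113.8 in the highest G9gl library. Srsf5, whose own libraries overlapped, was the most abundant gene in them. Srsf2 (chr11:116849901-116853094), named as the only gene called, stood at 172.8, 162.6 and 167 FPKM in WT and at 137, 138.5 and 153 in G9gl. All 3 G9gl libraries were below WT (log2 fold change -0.23 ± 0.06 SE, limma adjusted p 0.022). The Srsf2 call was lost without WT library 1 (adjusted p 0.066), WT library 3 (0.057) or G9gl library 2 (0.083), and Mettl23 and Mfsd11 overlap the gene on the other strand.

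Srsf5, both the most abundant Srsf gene and the one with the lowest fold change, stood at 407, 401 and 316 FPKM in WT and at 354, 284 and 278 in G9gl. WT library 3 lay below G9gl library 1, so the groups overlapped, and the log2 fold change of -0.29 ± 0.11 (SE) did not pass (limma adjusted p 0.094). Srsf5 passed without WT library 3 (adjusted p 0.026) and without G9gl library 1 (0.018), and with TPM (0.017) or quantile normalization (0.036). Srsf11 had the highest fold change, with 73.2, 73.6 and 75.7 FPKM in WT and 77.2, 81.4 and 82.1 in G9gl (log2 fold change 0.11, limma adjusted p 0.17, and -0.02 with TPM). Srsf1 and Srsf9 were below WT in every G9gl library without passing (adjusted p 0.093 and 0.058), and Srsf3, Srsf4, Srsf6, Srsf7 and Srsf10 overlapped.

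Most genes of hnRNP proteins, many of which repress exons or bind AU-rich and G-rich RNA, did not pass either. Of 19 tested genes (20 in the tables) 1 was called higher (5.26%, against 11.8% of all tested genes) and 2 lower (10.5%, near the 11.6% of all), 14 had negative log2 fold changes, and the median was -0.09. The libraries did not overlap in 8 genes, with G9gl below in 7 and above in 1, where 20.5% and 20.3% of all tested genes did so. The class summed to 2247 to 2324 FPKM in WT and 2120 to 2274 in G9gl. On the TPM scale 9 of the 19 were called lower and none higher (0), where 24.6% and 7.21% of all tested genes were.

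Hnrnpul1 (chr7:25721165-25754757), which encodes a relative of hnRNP U that acts in the response to DNA damage, stood at 44.6, 46.3 and 41.9 FPKM in WT and at 40.2, 32.0 and 31.0 in G9gl. Its log2 fold change was -0.36 ± 0.10 (SE), a 1.29-fold decrease, with a limma adjusted p of 0.025. The first G9gl library lay close to WT and the other two well below it. The Hnrnpul1 call was lost without WT library 1 (adjusted p 0.071), WT library 2 (0.092), G9gl library 2 (0.084) or G9gl library 3 (0.085), and with no filter on low values (0.079). Hnrnpab (chr11:51600100-51606847), the second gene called lower, named to complete the count, stood at 124.9, 121 and 116 FPKM in WT and at 104.8, 97.2 and 103 in G9gl (log2 fold change -0.25 ± 0.06, limma adjusted p 0.012). Hnrnpab, which overlaps Phykpl on the other strand, lost its call without G9gl library 2 (adjusted p 0.057).

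Hnrnpdl (chr5:100033577-100039664) was called higher, with 48.4, 44.9 and 43.6 FPKM in WT and 50.6, 55.1 and 58.1 in G9gl (log2 fold change 0.25 ± 0.07, limma adjusted p 0.033). Its protein resembles hnRNP D and, like it, binds AU-rich RNA. The Hnrnpdl call was lost without WT library 2 (adjusted p 0.099) or 3 (0.10) or G9gl library 2 (0.094) or 3 (0.12), with TPM (0.25) and with no filter (0.068). Hnrnpd itself (chr5:99955935-99978938), which lies nearby on the same chromosome and promotes decay of AU-rich mRNAs, had the lowest fold change of all 56 genes, with 20.1, 19.7 and 18.7 FPKM in WT and 17.3, 10.7 and 15.8 in G9gl. The G9gl libraries were all lower but spread widely, and the log2 fold change of -0.42 ± 0.15 (SE) did not pass (limma adjusted p 0.069). Hnrnpd passed without G9gl library 1 (-0.55, adjusted p 0.020), with TPM (0.020) and with the GC and length trend removed (0.044), whereas without G9gl library 2 its log2 fold change was -0.23 (0.13), above the -0.32 of Hnrnpul1. Hnrnpf, the most abundant Hnrnp gene, averaged 536 ± 18.4 and 504 ± 13.5 FPKM (SD, n = 3 each) and did not pass (adjusted p 0.22), but it did with TPM (0.0088), with quantile normalization (0.0060) and with the GC and length trend removed (0.046).

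Hnrnpa1, Hnrnpa3 and Hnrnpf have 5, 15 and 7 near-identical copies elsewhere, which makes their values uncertain, as in 16 of the 56 tested genes in all. In 20 of the 56 a gene overlaps on the other strand. The remaining Hnrnp genes ran from Hnrnpul2, at 2.61 to 3.99 FPKM in WT, to Hnrnpk, at 427 to 457 in WT and 432 to 443.5 in G9gl. Hnrnpk, Hnrnpc, Hnrnpm, Hnrnpr, Hnrnph1 and Hnrnph2 had log2 fold changes between -0.03 and 0.03, and Hnrnpl, Hnrnpu and Hnrnpa0 were lower in every G9gl library without passing. Hnrnpa1, Hnrnpa2b1, Hnrnpa3, Hnrnph3 and Hnrnpul2 overlapped between the groups.

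**Figure D4:**
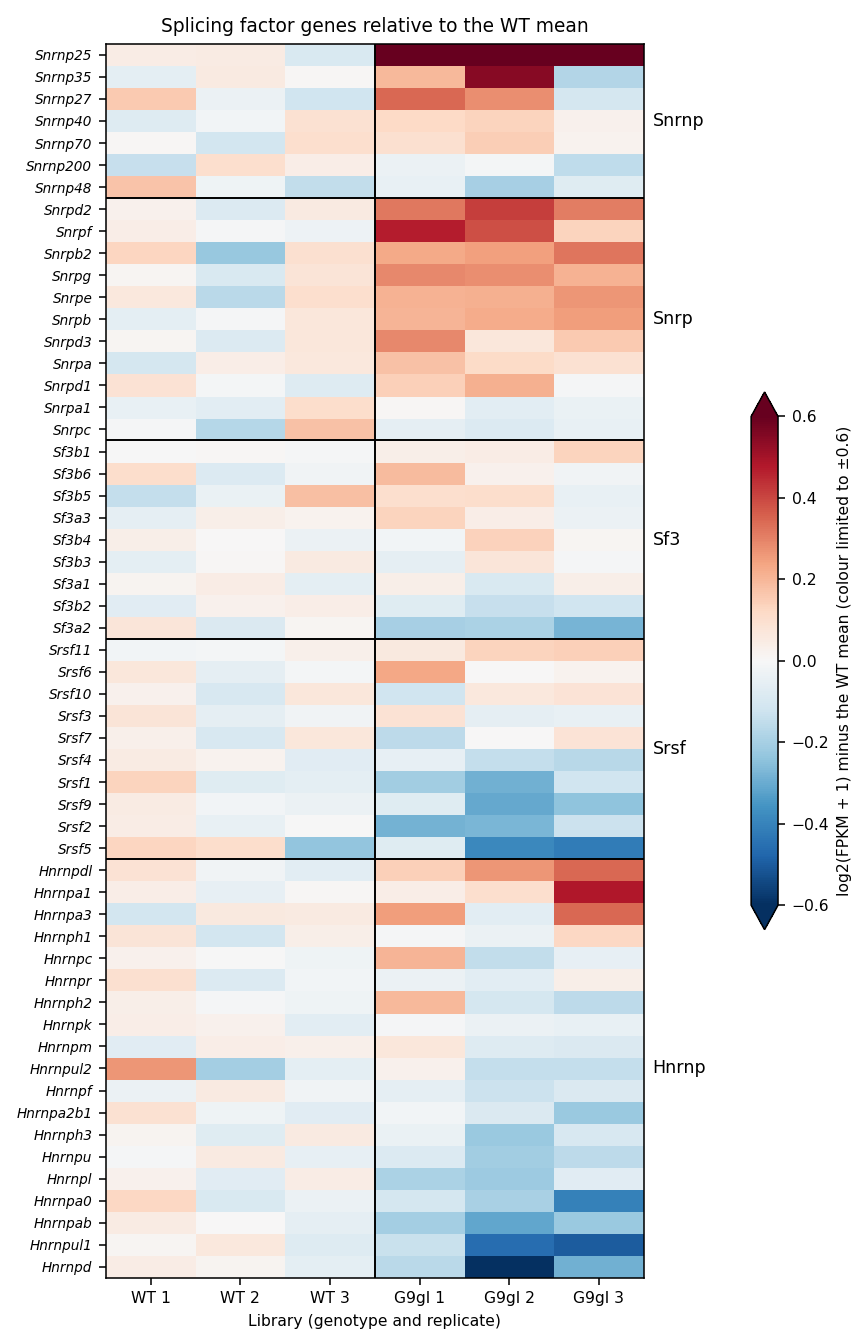
Each row is 1 of the 56 tested splicing genes, by class and ordered by fold change, and each column 1 library. Colour gives log2(FPKM + 1) minus the mean of the 3 WT libraries, limited to 0.6 either way. The upper rows of the Snrp class are red in all 3 G9gl libraries, the lower rows of the Srsf and Hnrnp classes are blue in most, and only Snrnp25 exceeds the colour range in every G9gl library.

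Genes that act with these factors showed few calls on the deposited scale. Over 9 lists with 156 tested genes of 158 in the tables, 8 were higher (5.13%) and 9 lower (5.77%), below the 11.8% and 11.6% of all tested genes, with a median of -0.01. With TPM these counts were 3 and 46 of 156, where 7.21% and 24.6% of all tested genes were called. The share called lower was then above that of all genes and the share called higher below it. The tri-snRNP and U5 list had no call in 20 genes, and the genes with the smallest p were Txnl4b (means 8.30 and 6.45 FPKM, limma adjusted p 0.050, and 0.012 with TPM), Prpf38a (30.9 and 35.3, 0.069) and Nhp2l1 (122 and 137, 0.073). At an unadjusted p under 0.05 (limma) 3 genes of this list were higher and 1 lower.

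Among factors that select the branch site with U2, 3 of 14 were lower (21.4%, against 11.6% of all tested genes) and none higher (4 and none at an unadjusted limma p under 0.05). The helicase gene Ddx42 had means of 36.4 ± 1.99 and 30.2 ± 1.32 FPKM, Cherp 25.4 ± 2.15 and 20.8 ± 0.493, and U2af1l4, a relative of the gene of the acceptor site factor U2AF1, 59.5 ± 4.79 and 49.3 ± 4.18 (SD, n = 3 each, limma adjusted p 0.023, 0.034 and 0.045). Each of these 3 calls was lost without WT library 2 (adjusted p 0.091, 0.12 and 0.057), without WT library 3 (0.052, 0.054 and 0.14) and without either G9gl library 2 (0.077, 0.10 and 0.089) or 3 (0.077, 0.076 and 0.14), and that of U2af1l4 also without WT library 1 (0.080). With no filter on low values the calls of Cherp (0.063) and U2af1l4 (0.10) were lost, and with the GC and length trend removed those of Ddx42 (0.051) and Cherp (log2 fold change -0.14 in place of -0.27, adjusted p 0.17).

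The LSm proteins form rings like that of the Sm proteins, among them those on U6 RNA and in mRNA decay. Of 9 genes listed 2 were higher (22.2%, against 11.8% of all tested genes): Lsm7 at 174, 163 and 159.8 FPKM in WT and 225, 206 and 210.1 in G9gl (log2 fold change 0.37 ± 0.06, limma adjusted p 0.0018, called under all 14 alternatives), and Lsm4 with means of 153 and 177.5 (adjusted p 0.022, and 0.30 with TPM). The Lsm4 call was lost without WT library 1 (adjusted p 0.055) or 2 (0.083) or G9gl library 2 (0.071) or 3 (0.060), and with quantile normalization (0.056). Lsm2 did not pass (36.4 and 41.1 FPKM, adjusted p 0.27). Of 17 genes listed with the assembly of snRNPs, 1 was higher (5.88%, against 11.8% of all tested genes). This was Wdr77, of a partner of the methyltransferase PRMT5 that modifies Sm proteins, with 18.5, 19.8 and 21.1 FPKM in WT and 23.7, 27.9 and 26.0 in G9gl (log2 fold change 0.37, limma adjusted p 0.013). The Wdr77 call was lost without G9gl library 2 (adjusted p 0.052) and with TPM (0.060). Prmt5 (21.9 and 25.9 FPKM) and Clns1a, which holds Sm proteins before assembly (35.2 and 40.5), just missed the threshold, with adjusted p of 0.061 and 0.062. Prmt5 passed without G9gl library 1 (adjusted p 0.040) or WT library 3 (0.050).

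Of 10 genes of SR protein kinases and import, 1 was lower, Dyrk1a, and 1 higher, Srpk3 (10% each, against 11.6% and 11.8% of all tested genes). The kinase gene Dyrk1a stood at 11.9, 10.1 and 10.7 FPKM in WT and at 7.73, 6.97 and 7.19 in G9gl (log2 fold change -0.52 ± 0.09, limma adjusted p 0.0040), and Srpk3, which encodes an SR protein kinase, at 132.9, 141 and 137 and at 159, 176 and 180.0 (0.32 ± 0.06, 0.0048). Both calls held under all 14 alternatives. Prpf4b, another kinase gene, did not pass (29.7 and 26.0 FPKM, adjusted p 0.070, and 0.0076 with TPM). In the list of the Prp19 complex and related proteins, 1 of 25 was higher and 1 lower (4% each, against 11.8% and 11.6% of all tested genes). Syf2 had means of 116.8 ± 7.30 and 95.7 ± 1.04 FPKM (SD, n = 3 each, limma adjusted p 0.0081, called under all 14 alternatives), and Cwc27, a cyclophilin gene, 22.4 and 28.1 (0.036). The Cwc27 call was lost on leaving out any single library but WT library 1 (adjusted p 0.058 to 0.11), with no filter (0.089), with TPM (0.15) and with the GC and length trend removed (0.090), and the helicase gene Dhx38 (19.8 and 16.0 FPKM) did not pass with all libraries (0.071) but did without WT library 1 (0.036) and with TPM (0.014).

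In the exon junction complex list 1 of 14 was higher (7.14%, against 11.8% of all tested genes). This gene, Rnps1 (92.1 and 106.5 FPKM, limma adjusted p 0.030), lost its call on leaving out any single library but WT library 3 (adjusted p 0.052 to 0.091). Rnps1 was not called with TPM either (log2 fold change 0.08 in place of 0.21, adjusted p 0.35), nor with quantile normalization (0.051), no filter (0.051) or the GC and length trend removed (0.054). Srrm2 (81.1 and 89.5 FPKM) and Casc3 (34.0 and 29.3) did not pass, with adjusted p of 0.078 and 0.094, and Casc3 reached 0.050 without G9gl library 1 and 0.012 with TPM. Of 38 tested other regulators of splicing, 4 were lower (10.5%, near the 11.6% of all tested genes) and none higher (against 11.8%). At an unadjusted limma p under 0.05, 7 were lower and 4 higher, beside 1820 and 1869 of all 10122 tested genes. Khsrp, which binds AU-rich and intronic elements, stood at 16.5, 13.9 and 15.9 FPKM in WT and at 11.1, 8.96 and 11.6 in G9gl (log2 fold change -0.52 ± 0.11, limma adjusted p 0.0085). The paraspeckle gene Sfpq averaged 61.5 ± 1.43 and 50.1 ± 2.78 FPKM (0.0087) and Mbnl1, a muscleblind factor gene, 122 ± 14.0 and 93.1 ± 4.16 (0.011), and these 3 calls held under all 14 alternatives. Pcbp1, named to complete the count, averaged 215 ± 9.12 and 147.8 ± 45.01 FPKM, with 192.5, 102.5 and 148 in the G9gl libraries (limma adjusted p 0.043), and its call was lost without WT library 1 (0.10), 2 (0.091) or 3 (0.11) or G9gl library 3 (0.075), and with no filter (0.15).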

How the data were processed

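RNA was measured in 6 libraries of sorted splenic Fo B cells, 3 WT and 3 G9gl. Per the labels' protocols, SMART-Seq HT cDNA went into Nextera libraries, which keep no strand. The values the authors deposited are FPKM per gene symbol. The submitters' processing notes name Cufflinks 2.2.1, TopHat2 2.0.13, SAMtools 0.1.19, Bowtie2 2.2.3 and the build mm10. The annotation and scaling across libraries: not given in the sources used here. Depth was estimated from the FPKM that 1 fragment gives.

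Genes that reached 1 FPKM in 3 or more libraries were tested with limma 3.58.1 in R 4.3.3 (lmFit, eBayes with a trend) on log2(FPKM + 1), by genotype alone, two-sided, with p-values adjusted by Benjamini-Hochberg over every tested gene. This scale understates fold changes of low genes. On simulated data with 50 changed genes per fold size, 14 were recovered at 5/4-fold, 36 at 1.5-fold and 48 at 2-fold, with 8 of 9922 unchanged genes called. Far fewer genes were changed there than were called in these data, so recovery of small changes here may be higher. Intervals have a confidence level of 95%.

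The genes and lists were chosen with earlier results of these data known. Values are given for Snrnp25, for called genes of at least 5/4-fold, for the most abundant gene and the genes with the highest and lowest fold change of each class, and for the 3 genes with the smallest p of each further list. Snrpb, Snrpe, Hnrnpab, Srsf2, Pcbp1, Snrpb2, other genes beyond this rule and the neighbours of Snrnp25 and Zrsr1 were named after their values were seen. Positions come from GENCODE vM21 (GRCm38, 1-based), promoters from RefSeq (GRCm38.p6) and near-identical copies from BLAST 2.17.0. The alternatives were pseudocounts of 0.1 and 5, no filter, a filter of 5 FPKM, TPM, quantile normalization, removal of a trend in GC content and length, a replicate block, and the omission of each library in turn.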

Additional observations from a re-analysis of the deposited data

How the results depend on the processing

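Snrnp25 was called higher under all 14 alternatives, with log2 fold changes from 1.56 to 1.71 (1.64 to 1.71 on leaving out 1 library). Of the 10 genes called, 2 (Snrnp25 and Snrpd2) kept their call under every alternative, 4 without any single library, and 5 with TPM. The count of genes called higher was 4 with no filter on low values and 2 with TPM, and that of genes called lower 16 with TPM, 8 with quantile normalization and 7 with the GC and length trend removed. Leaving out 1 library gave 4 to 6 higher and 0 to 7 lower. Shares over all tested genes were taken only for the deposited scale and for TPM (7.21% higher and 24.6% lower). Counts under the other alternatives, in all and by class, thus describe those settings and are not results about splicing genes. By class, the Srsf genes called lower were 5 with TPM, 3 with quantile normalization and 2 with the GC and length trend removed (0 to 3 on leaving out 1 library). The Hnrnp genes called higher were 0 with no filter and 0 with TPM (0 to 1), and those called lower 1 with no filter, 9 with TPM, 5 with quantile normalization and 4 with the trend removed (0 to 4). The Snrp genes called higher were 3 with no filter, 1 with TPM, 3 with quantile normalization and 2 with the trend removed (3 to 4). Sf3 genes called higher were 1 with the trend removed, and those called lower 2 with TPM and 1 with the trend removed. The median log2 fold change was -0.13 with TPM and -0.01 to 0.02 on leaving out 1 library. Signs turned for Sf3b1 (-0.0619) and Srsf11 (-0.0198) with TPM and for Snrpc (0.0283) without WT library 3 (-0.143 to 0.0283 on leaving out 1 library), none of which was called on the deposited scale, though Sf3b1 was called higher (0.168) with the trend removed. TPM divides the G9gl libraries by larger totals, and the cause of the other changes was not tested.

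The labels do not say whether the replicate numbers that the groups share pair the samples. Deviations from the group means correlated at 0.10, -0.07 and 0.02 between same-numbered libraries and at -0.153 to 0.157 between the others. With 3 libraries per group these values cannot decide whether samples were paired. With the replicate block, Srsf genes called lower were 2 and Hnrnp genes called higher 0, and 4 genes were lower and 6 higher in all. Hnrnpdl and, of the further lists, Cherp, Ddx42, U2af1l4, Cwc27 and Rnps1 lost their calls with it. At this depth genes near 1 FPKM rest on few fragments, and of simulated 5/4-fold changes, near the size of most calls here, 14 of 50 were recovered. The simulation changed far fewer genes than the 1191 and 1174 called in these data. Its adjusted threshold was therefore stricter, and its recovery of small changes may be lower than in these data.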

Other observations

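Across the 56 tested splicing genes, log2 fold change and transcript length had a Spearman correlation of -0.36, and across 9733 tested genes with a length it was -0.22. Genes are not independent replicates, they share libraries and FPKM divides by length, so these are descriptions only. The correlations with GC content were -0.12 and -0.05. The Sm ring transcripts are short, with a median length of 1055 bases against 2142 for the Hnrnp genes, and with the trend in GC content and length removed the Sm ring median was 0.17 in place of 0.23 and the Hnrnp median -0.10 in place of -0.09.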
